A study of Homo sapiens with 4 samples.

Results

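The domain II core of 28S rRNA, nt 1312 to 2100, is part of the second domain of the large subunit rRNA. It follows the expansion segment ES7L and holds the GTPase-associated centre near its end. It was defined by its position and comprised 789 of the 15984 positions for which read depth was listed, 15.6% of the length of 28S (5070 nt). Nucleotides are counted from the first nucleotide of 28S, and adding 7924 gives the position in the 45S precursor reference (RNA45SN5), all of it within the mature rRNA and not in a spacer. HEK293T cells, a human embryonic kidney line with the SV40 large T antigen, stably overexpressed Flag-SIRT7 and were used at passages 10 to 15. SIRT7 is a nucleolar sirtuin, an NAD-dependent lysine deacylase. Flag-SIRT7 was captured on anti-Flag gel from a cytosolic and from a nuclear fraction, and the RNA that came down with it was sequenced, with 2 libraries per fraction (RNA immunoprecipitation). Both fractions carry the same construct, and neither cells without it nor input RNA were analysed here, so the values describe recovered RNA and not enrichment. The labels do not say that the libraries of a fraction came from separate cultures, so the spread between them may be technical.

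Domain II of the large subunit rRNA builds the back of the subunit and the base of its flexible stalk. The GTPase-associated centre is a compact fold near the end of the domain that binds protein uL11 and the stalk protein uL10, and with them receives the elongation factors that hydrolyse GTP during translation. Other helices of the domain reach toward the tRNA entry site and contact the small subunit. Most of the domain II core is conserved between bacteria and eukaryotes, whereas ES7L before it is a variable insertion of eukaryotes.

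The stretches on which the results turn are given as the reference listed them, in DNA letters, 5′ to 3′. The GTPase-associated centre was placed at nt 1965 to 2022 (58 nt, 56.9% G+C) by 2 motifs, GGAAGTCGG and TGTGTAACA, which are in capitals in the first line and began 23 nt apart. In the second line the capitals mark AGCTGGTTC, at nt 1653 to 1661, a motif of a conserved stretch. In the other lines they mark the 10 nt of highest depth in the cytosol, of lowest depth in both fractions, of the lowest nuclear over cytosolic depth and of the highest. The ends of the GTPase-associated centre were set at 16 nt before its first motif and 10 nt after its second. They were not taken from an annotation.
GTPase-associated centre, nt 1965 to 2022: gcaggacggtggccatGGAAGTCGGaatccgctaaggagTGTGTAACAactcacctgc
Conserved stretch, nt 1577 to 1676: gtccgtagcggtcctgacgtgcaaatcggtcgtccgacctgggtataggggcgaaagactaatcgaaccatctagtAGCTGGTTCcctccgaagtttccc
Deepest window, nt 1877 to 1976: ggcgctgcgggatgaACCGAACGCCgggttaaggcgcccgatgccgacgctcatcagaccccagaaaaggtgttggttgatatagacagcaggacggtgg
Shallowest stretch, nt 1312 to 1371: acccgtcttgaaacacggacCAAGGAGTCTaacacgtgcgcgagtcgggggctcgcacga
Stretch most reduced in the nucleus, nt 1742 to 1841: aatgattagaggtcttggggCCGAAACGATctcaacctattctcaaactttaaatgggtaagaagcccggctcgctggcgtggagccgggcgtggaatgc
Stretch highest in the nucleus against the cytosol, nt 2022 to 2081: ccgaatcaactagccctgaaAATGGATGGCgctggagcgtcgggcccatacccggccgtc

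Each motif was searched on both strands of all listed sequences. AGCTGGTTC and TGTGTAACA each occurred once, in 0.621% of 161 windows of 100 nt, and GGAAGTCGG occurred in 2 places, or 1.24% of the windows, 1 of them in the core. The last 12 nt of the deepest window are also the first 12 nt of the GTPase-associated centre. The core had 61.3% G+C against 70.9% in the rest of 28S, with 22.1% A against 14.6%.

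The domain II core was recovered deeply in both fractions. Its mean depth, divided by that library's mean over every listed position, was 4.49 and 4.41 in the cytosolic libraries against 3.90 and 3.88 in the nuclear pair. Both nuclear values lay below both cytosolic values. The core thus held 22.0% ± 0.277 of all listed rRNA depth in cytosolic and 19.2% ± 0.0962 in nuclear libraries (SD, n = 2), from 4.94% of the positions. The highest depth of the whole data set lay in the core in all 4 libraries, at nt 1893 or 1894 in 3 of them and at nt 1912 in nuclear replicate 2, with 1793950 and 1737392 reads in the cytosol against 1594495 and 1418360 in the nucleus. The lowest depth within the core was at nt 1339 in every library, between 80561 and 94649 reads, so counting error is small beside the spread between libraries. One read adds to the depth of every base that it covers, and neighbouring positions are therefore not independent.

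The nuclear share was lower for 28S as a whole by a like amount, with mean relative depths of 2.33 and 2.26 in the cytosol against 2.02 and 2.0 in the nucleus. As 1 of 12 regions, the core differed by -0.19 on the log2 scale (SE 0.06), a nuclear level of 0.874 times the cytosolic one (95% interval 0.767 to 0.995), with an adjusted p of 0.0674 in limma, so it did not pass the threshold of 0.05. Of the 12 regions, 50% passed in either direction. The exact two-sided permutation test gave p = 0.333, the smallest possible with 2 libraries against 2. Of the 28S depth alone, the core held 30.1% and 30.4% in the cytosol against 30.1% and 30.2% in the nucleus, and these ranges overlap. Scaled to 28S, the log2 difference of the core was -0.0043 (95% interval -0.11 to 0.097, limma). The call for the region depends on the variance model, since the fit with a variance trend gave an adjusted p of 2.6e-05 for the same difference.

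**Figure D1:**
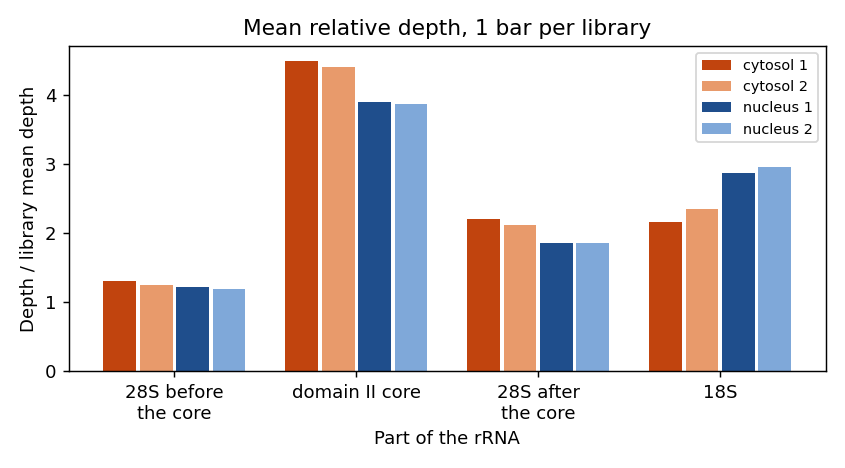
Mean depth divided by the library's mean depth (vertical axis, no unit) for 28S before the core, the core, 28S after the core and 18S, with 1 bar for each of the 4 libraries. The core stands at 3.88 to 4.49, above both flanking parts of 28S in every library, and 18S is the part whose nuclear bars are the higher ones.

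On average, the core stood above both of its neighbours in 28S. The 1311 nt before it, which include ES7L, had mean relative depths of 1.30 and 1.25 in the cytosol against 1.23 and 1.19 in the nucleus. The 2970 nt after it had 2.2 and 2.13 in the cytosol and 1.86 in both nuclear libraries. The log2 ratio of the core over the rest of 28S was 1.22 and 1.25 in the cytosol against 1.23 and 1.23 in the nucleus, a difference of -0.0062 (exact permutation p = 1). That difference turned to 0.0066 without cytosolic replicate 2. By contrast 18S, the small subunit rRNA, had 2.16 and 2.35 in the cytosol against 2.88 and 2.95 in the nucleus. Mitochondrial rRNA, a marker of another compartment, held 0.0198% and 0.0274% of depth in the cytosol but 1.64% and 1.48% in the nucleus, and its part in the differences of the core was not tested.

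Depth was uneven along the core, in the same way in all libraries. It rose from a mean of 0.487 over nt 1332 to 1341 in the cytosol (0.464 in the nucleus) to 4 crests. The first crest, at nt 1462 to 1471, reached 5.37 and 5.48 in the cytosol against 4.50 and 4.03 in the nucleus. The next, around the conserved stretch, reached 6.84 and 6.76 at nt 1662 to 1671 in the cytosol against 6.85 and 7.0 in the nucleus. In this bin the nuclear values lay just above the cytosolic ones, whereas at the first crest they lay below. The cytosolic top of this crest was the next bin, nt 1672 to 1681, where the fractions overlapped, with 6.94 and 6.72 in the cytosol against 6.82 and 6.89 in the nucleus.

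The tallest crest lay ahead of the GTPase-associated centre. At nt 1892 to 1901 it reached 8.40 and 8.53 in the cytosol against 7.31 and 7.20 in the nucleus, and the highest nuclear bin was the next one, nt 1902 to 1911, at 7.29 and 7.24. The final crest followed the centre, at nt 2032 to 2041, with 5.69 and 5.38 in the cytosol against 5.83 and 6.03 in the nucleus. Between the tall crests depth dipped at nt 1752 to 1761, to 2.99 and 2.70 in the cytosol against 2.09 and 2.17 in the nucleus. The steepest rise common to the libraries was at nt 1387 (0.52 in the cytosol and 0.53 in the nucleus, as the log2 change of mean depth from the 10 nt before a position to the 10 nt that start at it). The steepest fall with all 20 nt inside the core was at nt 1735, where depth dropped by 0.47 in the cytosol and by 0.56 in the nucleus on that scale. Depth dropped further across the end of the core, by 0.62 and by 0.71 at nt 2100, where most of the later 10 nt lie outside it. Highest over lowest position was a ratio of 19.0 and 20.4 in the cytosol against 16.9 and 17.6 in the nucleus.

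**Figure D2:**
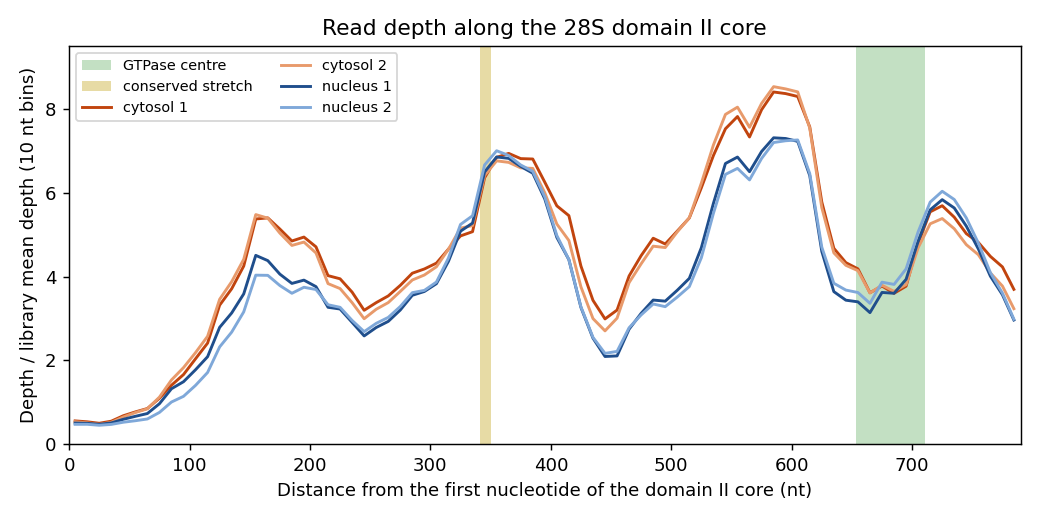
Depth divided by the library's mean depth (vertical axis, means of 10 nt bins) against distance from the first nucleotide of the core (horizontal axis, nt), with 1 line per library, a green band for the GTPase-associated centre and a yellow band for the conserved motif. The lines share their crests and dips, and the cytosolic lines reach 8.40 and 8.53 at the tallest crest where the nuclear ones reach 7.31 and 7.20.

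The shape of the profile was close between libraries. Over the 789 positions, Pearson's r of log2 depth was 0.998 between the cytosolic libraries, 0.995 between the nuclear ones and 0.978 to 0.987 across fractions. Positions share reads, so these values describe the profiles and carry no p. Positions of the core varied less than those of the rest of 28S, with a coefficient of variation of 44.0% to 48.7% against 93.6% to 98.8%. G+C content did not order the bins by depth, with Spearman's rho of -0.082 to 0.0035 over 79 bins, and rho was -0.23 with the log2 ratio of nucleus over cytosol. Adjacent bins share reads here too.

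Of the 7 windows of 100 nt that lie wholly within the core, 5 were lower in the nucleus and none was higher by limma with Benjamini-Hochberg adjustment over all 136 tested windows (0 higher also at an unadjusted p under 0.05). Over all windows 17.6% were lower and 39% higher. The median log2 difference was -0.24 in the core windows, -0.13 in the 42 other windows of 28S, which include the 2 that cross the ends of the core, and 0.0095 over all tested windows. Of those 42 windows, 15 were lower and 5 higher. Leaving out cytosolic replicate 1 or cytosolic replicate 2 reduced the 5 calls to 2.

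The window at nt 1777 to 1876, just ahead of the tallest crest, had the largest fall among the windows wholly within the core, closely followed by nt 1377 to 1476. Its relative depth was 5.87 and 5.91 in the cytosol against 4.62 and 4.45 in the nucleus. The cytosolic pair lie close together and both nuclear values lie well below them, and limma gave -0.38 on the log2 scale (SE 0.04, adjusted p = 0.00288). It ranked 2nd of the 49 windows of 28S by depth in the cytosol and 7th in the nucleus. Next to it, the deepest window, nt 1877 to 1976, had 6.52 and 6.54 in the cytosol against 5.52 and 5.57 in the nucleus. It ranked 1st in both fractions and fell by 0.24 on the log2 scale (SE 0.03, adjusted p = 0.00707 in limma). That call ended without cytosolic replicate 1 (adjusted p = 0.0559 in limma) and without cytosolic replicate 2 (0.0510).

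Toward the start of the core, nt 1477 to 1576 had 4.22 and 4.06 in the cytosol against 3.39 and 3.34 in the nucleus. The libraries of a fraction lay close together, and the log2 difference was -0.30 (SE 0.04, adjusted p = 0.00707 in limma). The window before it, nt 1377 to 1476, had 2.84 and 2.96 in the cytosol against 2.43 and 2.06 in the nucleus. Here the nuclear libraries differed from each other more than in any other window of the core, and the log2 difference of -0.38 had a larger error (SE 0.10, adjusted p = 0.0361 in limma). Its call ended without cytosolic replicate 1 (adjusted p = 0.130 in limma) or 2 (0.154). The window crossing the start of the core, nt 1277 to 1376, was shallow, at 0.623 and 0.618 in the cytosol against 0.571 and 0.510 in the nucleus. It did not pass (adjusted p = 0.220 in limma).

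In the middle of the core the fractions were closest. At nt 1577 to 1676, which ends in the conserved stretch shown above, depth was 4.96 and 4.92 in the cytosol against 4.73 and 4.83 in the nucleus. The nuclear values lay just below the cytosolic ones, and limma gave -0.05 on the log2 scale (SE 0.04, adjusted p = 0.326). This value averages unlike parts. In windows of 50 nt, nt 1577 to 1626 was lower in the nucleus by 0.16 (SE 0.04, adjusted p = 0.0374 in limma). For nt 1627 to 1676 the log2 difference was 0.03 and did not pass. Over the 9 nt of AGCTGGTTC itself, depth was 6.38 and 6.44 in the cytosol against 6.52 and 6.68 in the nucleus. The nuclear libraries were thus the higher ones at the motif, by 1.03 times. The following window, nt 1677 to 1776, had 5.03 and 4.70 in the cytosol against 4.30 and 4.34 in the nucleus, a log2 difference of -0.17 (SE 0.05) that passed narrowly (adjusted p = 0.0494 in limma). Leaving out any 1 of the 4 libraries ended that call, with adjusted p-values of 0.0551 to 0.156.

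**Figure D3:**
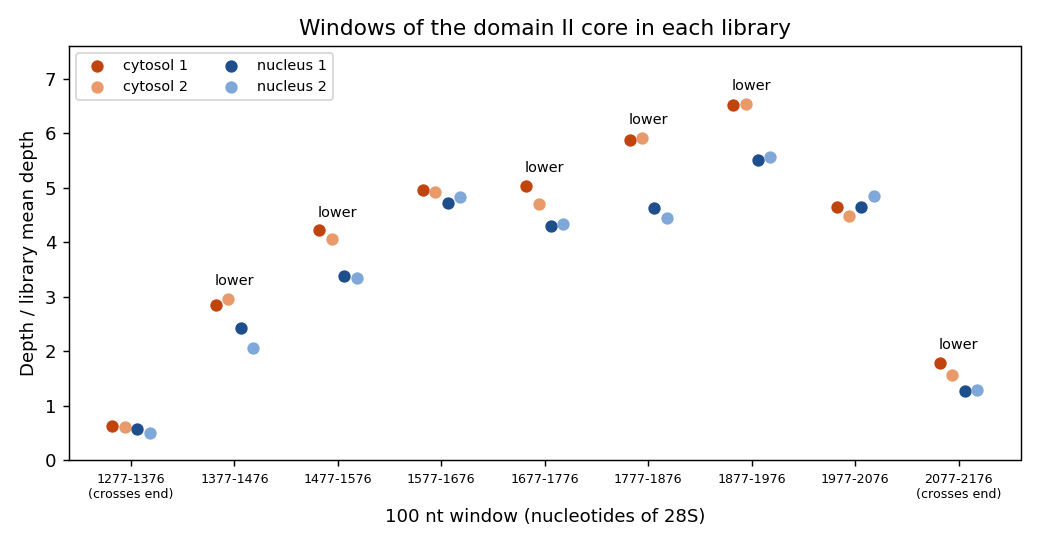
Depth divided by the library's mean depth (vertical axis) in the 7 windows of 100 nt within the core and the 2 that cross its ends (horizontal axis, nucleotides of 28S), with 1 point per library; "lower" marks windows that passed the limma test. The points of the fractions lie apart at nt 1777 to 1876 and at nt 1877 to 1976 and run together at nt 1977 to 2076.

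The window with most of the GTPase-associated centre, which also runs past the end of the centre, was an exception only in the sign of its difference. Nt 1977 to 2076 had a depth of 4.65 and 4.48 in the cytosol against 4.65 and 4.85 in the nucleus. It was the only window within the core whose log2 difference was above 0, at 0.06 (SE 0.04, adjusted p = 0.324 in limma), and it did not pass. With the scaling by median of ratios it was -0.18 and did not pass either. The window crossing the end of the core, nt 2077 to 2176, had 86% G+C. It had 1.78 and 1.56 in the cytosol against 1.27 and 1.29 in the nucleus, and fell by 0.38 on the log2 scale (SE 0.09, adjusted p = 0.0251 in limma). Without cytosolic replicate 1 its difference was -0.28 and did not pass (adjusted p = 0.0564 in limma).

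The GTPase-associated centre itself had overlapping levels in the fractions. Its 58 nt had a mean relative depth of 3.96 and 3.95 in the cytosol against 3.80 and 4.03 in the nucleus, so the nuclear values enclosed the cytosolic ones. In reads per position, this was 822352 and 780675 against 803967 and 760953. Since the rest of the core was lower in the nucleus, the log2 ratio of the centre over the rest of the core was -0.20 and -0.17 in the cytosol against -0.04 and 0.06 in the nucleus. The difference, 0.19, was larger than the SD of either pair (0.02 and 0.07, n = 2), with no overlap between the fractions (exact permutation p = 0.333, the smallest possible). Taken from position medians, the difference was 0.31. A lack of overlap was common within the core. Of the 7 windows wholly within it, 6 had no overlap between the fractions in their log2 ratio over the whole core. Away from the centre these differences were -0.18 at nt 1377 to 1476, -0.18 at nt 1777 to 1876 and 0.15 at nt 1577 to 1676. The window at nt 1677 to 1776 overlapped. The lack of overlap and a difference of this size therefore do not by themselves mark out the centre.

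Within the centre the fractions crossed. At the first motif, nt 1981 to 1989, depth was 3.80 and 3.82 in the cytosol against 3.63 and 3.89 in the nucleus. At the second motif, nt 2004 to 2012, it was 3.84 and 3.86 in the cytosol against 4.0 and 4.25 in the nucleus, so both nuclear libraries were above both cytosolic ones. The change from the 10 nt before nt 1980 to the 10 nt from it on was 0.04 and 0.03 on the log2 scale in the cytosol against 0.19 and 0.19 in the nucleus. This was among the 3 places, at least 30 nt apart, where the step differed most between the fractions. The others were nt 1845, with 0.16 and 0.19 in the cytosol against 0.31 and 0.32 in the nucleus, and nt 1349, with 0.41 and 0.42 against 0.30 and 0.21. Nuclear depth therefore gained on cytosolic depth at nt 1845 and nt 1980 and lost at nt 1349. No test was made of these steps, which were picked as the most different.

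Position by position, both nuclear libraries were below both cytosolic ones at 627 of the 789 positions (79.5%) and above both at 85 (10.8%). Over all listed positions the shares were 32.2% and 44%, and over the rest of 28S 57.1% and 18.7%. The lower positions fell into 4 runs, of which the longest were nt 1343 to 1631 and nt 1692 to 1980, each of 289 nt, with log2 ratios of nuclear over cytosolic mean depth of -0.28 and -0.28. The second of these ended at nt 1980, next to the first motif of the GTPase-associated centre. The positions with higher nuclear depth lay in 5 runs, the longest at nt 2022 to 2065 (44 nt, log2 ratio 0.10), nt 1645 to 1666 (22 nt, 0.05) and nt 2000 to 2013 (14 nt, 0.09). The first of the 5 covers the conserved motif, and the last begins at the final nucleotide of the centre.

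**Figure D4:**
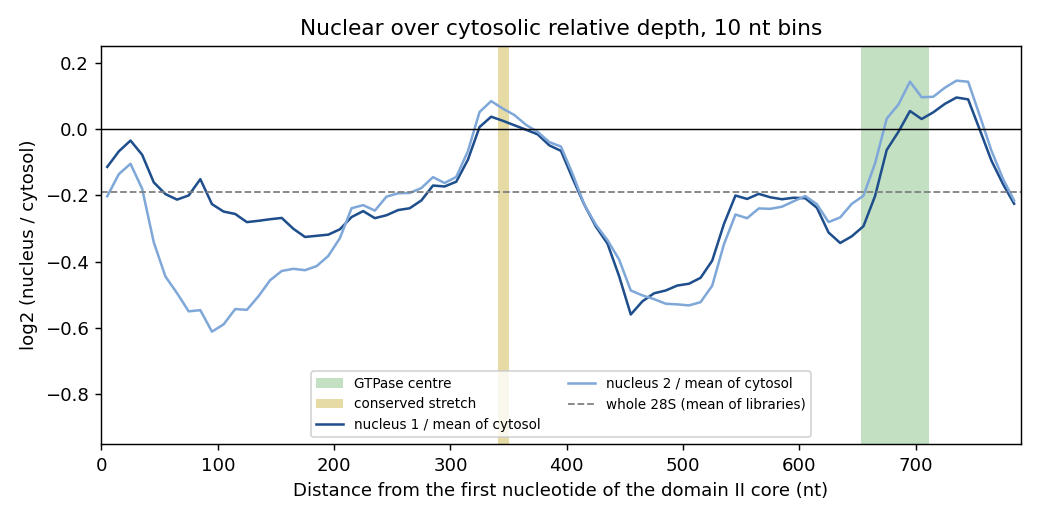
Log2 ratio of each nuclear library over the mean of the cytosolic libraries (vertical axis) in 10 nt bins against distance from the first nucleotide of the core (horizontal axis, nt), with a dashed line for 28S as a whole and coloured bands for the conserved motif and the GTPase-associated centre. The lines are above 0 at the conserved motif and fall to a trough after it. They cross 0 within the band of the GTPase-associated centre and are highest after that band. They differ from each other most in the first 200 nt.

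The ratio between the fractions ranged more widely along the core than its mean shows. Over the 79 bins of 10 nt the log2 ratio of nucleus over cytosol had a median of -0.23, and 29 bins were above and 50 below the value of 28S as a whole (-0.19). The lowest bin, nt 1762 to 1771, had 3.20 and 3.01 in the cytosol against 2.11 and 2.21 in the nucleus, a log2 ratio of -0.52. The highest bin, nt 2042 to 2051, had 5.42 and 5.14 in the cytosol against 5.64 and 5.84 in the nucleus, a log2 ratio of 0.12. In both bins the fractions did not overlap, which also held at all but 77 of the 789 positions of the core. These bins are the extremes of the core and are given as a description.

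Measured against 28S, 2 windows of the core rose and 2 fell. Scaling each library to its depth over 28S moved the log2 differences by 0.19, and 8.82% of all windows were then lower and 44.9% higher in the nucleus. Of the 42 other windows of 28S, 7 were then lower and 9 higher. Fits that leave out a library were not run at this scaling. The window at nt 1577 to 1676, which ends in the conserved stretch, rose by 0.14 (SE 0.03, adjusted p = 0.0393 in limma). The window at nt 1977 to 2076 rose by 0.25 (SE 0.04, adjusted p = 0.0154 in limma). It holds most of the GTPase-associated centre but runs past its end, and includes the bin of highest nuclear over cytosolic depth, nt 2042 to 2051. The windows at nt 1477 to 1576 and nt 1777 to 1876 fell by 0.11 (SE 0.03, adjusted p = 0.0458) and by 0.19 (SE 0.04, adjusted p = 0.0279). The remaining 3 windows did not pass: nt 1377 to 1476 had a log2 difference of -0.19, nt 1677 to 1776 one of 0.02, and the deepest window one of -0.04. As shares of all rRNA depth, the pair that rose here did not pass, while the pair that fell here was lower on both scales.

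At finer resolution the same places stood out. Of 15 windows of 50 nt within the core, 9 were lower in the nucleus and none was higher by limma (0 also at an unadjusted p under 0.05), where 18.2% of all such windows were lower and 37.1% higher. The largest fall was at nt 1777 to 1826, by 0.50 on the log2 scale (SE 0.04, adjusted p = 0.00210). Those that did not pass included nt 1627 to 1676, which holds the conserved motif (0.03), and nt 1977 to 2026 and nt 2027 to 2076, at the GTPase-associated centre and after it (0.04 and 0.08). The others were the first 2, nt 1327 to 1376 (-0.21) and nt 1377 to 1426 (-0.39), and nt 1677 to 1726 (-0.07). At nt 1377 to 1426 the error was the largest of the 15 (SE 0.14, adjusted p = 0.0924 in limma). Of the 85 other windows of 50 nt in 28S, 32 were lower and 6 higher in the nucleus. The median log2 difference was -0.21 in these and -0.24 in the core windows.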

How the data were processed

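Read depth along rRNA reference sequences was available for 4 libraries of RNA recovered with Flag-SIRT7, 2 from the cytosolic and 2 from the nuclear fraction. The deposited values are coverage (signal): whole numbers of reads over each position, with no scaling between libraries (per the file headers). The submitters' processing notes name SAMtools, Bowtie2 2.2.6 and cutadapt 1.5; their settings and whether strand was used are not given in the sources used. Summed depth was 3021350782 to 3384088983 per library. Depth was divided by the library mean over all listed positions, so values are shares of rRNA depth.

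Windows of 100 nt whose mean depth reached 10 in 2 or more libraries (136 of 161) were tested with limma 3.58.1 in R 4.3.3 on log2(relative depth + 0.01), with a variance trend and Benjamini-Hochberg adjustment over all windows. The 12 regions (5S, the spacers, 18S, 5.8S, 28S before, in and after the core, and mitochondrial 12S and 16S) were fitted without a trend or pseudocount. Ratios were compared by two-sided exact permutation over libraries. The window fit was also run on simulated windows that took their means and spread from these data, and the outcome is not reported here. The rule for named items took all windows touching the core, the GTPase-associated centre, the conserved stretch, the extreme bins of depth and the 3 largest differences in step. The extreme bins of the ratio, the steps common to all libraries, the runs of positions, the single motifs and the values of 50 nt windows were added after the values were seen. The core and these lists were chosen with earlier results of these data known. Alternatives changed the scaling, pseudocount, depth minimum, variance trend, windows, medians, flanks and span, added a replicate block or left out each library.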

Additional observations from a re-analysis of the deposited data

How the results depend on the processing

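The number of core windows lower in the nucleus, 5 of 7, was 2 with the scaling to 28S, 3 with a pseudocount of 0.1, with no minimum depth, without a variance trend and with window medians, 9 of 15 with windows of 50 nt, and 2 to 4 when each library was left out in turn. It was 4 or 5 under the other alternatives. Without a replicate left out, windows at nt 1377 to 1476 and nt 1677 to 1776 accounted for the calls lost at a pseudocount of 0.1, with no minimum depth, without a trend and with medians; the cause was not tested. Scaling to 28S turned nt 1577 to 1676 to 0.14 and nt 1677 to 1776 to 0.020, and the median of ratios, which moved all log2 ratios by -0.24, turned nt 1977 to 2076 to -0.18. The windows at nt 1477 to 1576 and nt 1777 to 1876 stayed past the threshold under all 13 alternatives run on them.

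The log2 difference of the core as a region stayed negative under all alternatives run, between -0.44 and -0.0043, and with a variance trend the same value of -0.19 passed. The log2 ratio of the core over the rest of 28S differed by -0.019 to 0.0066 between fractions when each library was left out, so its sign was not settled. The ratio of the GTPase-associated centre over the rest of the core differed by 0.14 to 0.24 when each library was left out. The replicate block gave 5 lower windows and a core difference of -0.19 (adjusted p = 0.105 in limma) and changed no call. The labels do not say what a shared replicate number stands for, and the deviations of same-numbered libraries correlated with r = 0.23 over windows. With 2 libraries against 2 no exact test can pass 0.05, and depth in the core is high enough that the number of libraries, not of reads, limits precision.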
